A study of Mus musculus with 32 samples.

Results

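The G-protein-gated inwardly rectifying potassium (GIRK) channel subunits were followed across the hippocampus of 8 inbred mouse strains. Members were taken as every probe set whose single gene symbol in the array's annotation is Kcnj3, Kcnj6 or Kcnj9. That gave 3 of the 8251 genes named on the array, read by 5 of its 12422 probe sets that are not controls: 2 for Kcnj9 (98332_at and 161799_r_at), 1 for Kcnj3 (101188_at) and 2 for Kcnj6 (92523_at and 92524_at). Both Kcnj9 probe sets were among the 7453 probe sets with a mean signal high enough to be tested, and the other 3 members were not.

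The study set untreated strains side by side, to relate hippocampal transcript levels to differences in behaviour between strains. The strains, C57BL/6J, A/J, DBA/2J, FVB/NJ, SJL/J, C3H/HeJ, BALB/cByJ and hippocampus_129S1SvImJ (written here as the sample titles join it to the tissue, and with a slash and without the tissue in the figures), were each represented by 1 pool of hippocampal RNA from 6 mice. From the cDNA of each pool cRNA was prepared 2 times, and each preparation was hybridised to 2 arrays, so that arrays 1 and 2 carry preparation 1 and arrays 3 and 4 carry preparation 2. No transgene or treatment was involved, and the labels give neither age nor sex. The 4 arrays of a strain are technical replicates: p-values below measure the spread between preparations of 1 pool, not that between animals, and the number of arrays limits the precision. In whole tissue, fewer cells that express a gene and less RNA per cell cannot be told apart.

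GIRK channels are tetramers that open when Gi/o-coupled receptors release G protein beta-gamma dimers, and the potassium current that follows hyperpolarises the cell. In hippocampal pyramidal neurons they carry the slow inhibitory current evoked by GABA-B, serotonin 1A and adenosine A1 receptors. Kcnj3 encodes GIRK1 (Kir3.1), which needs a partner subunit to reach the cell surface. Kcnj6 encodes GIRK2 (Kir3.2), which can form channels alone or with the other subunits, and Kcnj9 encodes GIRK3 (Kir3.3), which assembles with GIRK1 and GIRK2 and carries a sorting motif that directs channels into the endosomal pathway.

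The start region of Kcnj9 is shown because 1 of its 2 probe sets differed between strains, and because the RefSeq mouse assembly GRCm38.p6 is of C57BL/6J, the strain with the low signal. The 300 bases run 5′ to 3′ on the minus strand of chr1:172329273-172329572, from 250 bases before to 50 bases after the annotated start. Capitals mark matches to a TATA box spelled TATAAA and to a CCAAT box spelled CCAAT. The other letters searched on both strands, a GC box spelled GGGCGG and the core of a cAMP response element spelled TGACGT, are not in this window.
Kcnj9: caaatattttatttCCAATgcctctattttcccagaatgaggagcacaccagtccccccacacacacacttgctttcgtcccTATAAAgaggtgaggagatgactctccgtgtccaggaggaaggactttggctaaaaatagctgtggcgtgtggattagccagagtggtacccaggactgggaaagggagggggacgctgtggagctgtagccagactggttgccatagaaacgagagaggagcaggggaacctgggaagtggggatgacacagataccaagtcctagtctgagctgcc
The CCAAT match begins 236 bases before the annotated start and the TATAAA match 168 bases before it. Of 32851 mouse windows of this length, 37.4% hold CCAAT and 13.6% hold TATAAA on either strand. Its GC content was 52.3% and it held 5 CpG dinucleotides, against medians of 52.7% and 7 over all windows. The matching windows of Kcnj3 and Kcnj6 hold 10 and 30 CpG dinucleotides, at 57.7% and 62.0% GC. These are matches of letters in the genome of 1 strain; no binding was measured, and the sequences of the other 7 strains were not used here.

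Kcnj9 was low in C57BL/6J on probe set 98332_at. The deposited signal (linear units) on its 4 C57BL/6J arrays was 87.3, 95.1, 97.9 and 101.2. Among the other strains, DBA/2J read 323.3, 402.0, 285.9 and 297.1, and hippocampus_129S1SvImJ read 320.4, 326.9, 214.0 and 248.0. SJL/J read 250.1, 257.5, 241.8 and 272.3, and C3H/HeJ read 212.9, 311.5, 226.0 and 242.3. In these 4 strains every array read 212.9 or more. FVB/NJ read 206.4, 233.0, 208.6 and 237.3, BALB/cByJ read 249.8, 202.0, 186.1 and 201.1, and A/J read 170.9, 234.9, 189.7 and 240.2. Every C57BL/6J array lay below every array of the other 7 strains, whose lowest value was 170.9 on an A/J array, while the arrays of the other 7 strains overlapped in part. Whether the sequence under the probes differs between strains was not tested for either Kcnj9 probe set, and a difference in transcript level and one in probe binding cannot be told apart by signal alone. Of the 7453 tested probe sets 28 (0.376%) had all 4 C57BL/6J arrays below the other 28 in this way.

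**Figure D1:**
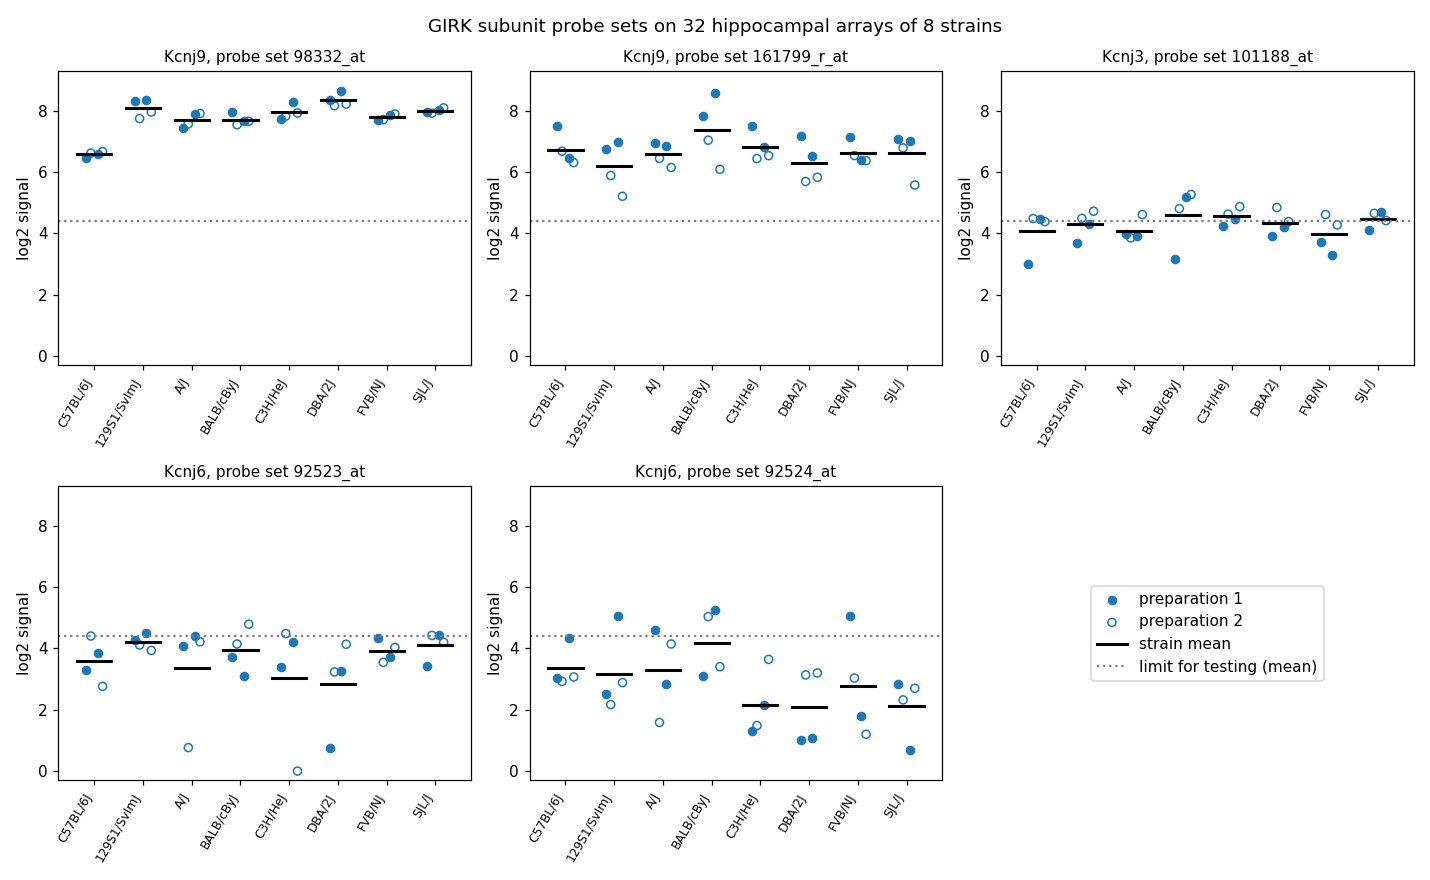
Log2 signal (vertical axis) of the 5 GIRK subunit probe sets on each of the 4 arrays of the 8 strains (horizontal axis), with filled points for preparation 1, open points for preparation 2, a bar at the strain mean and a dotted line at the mean log2 signal of 4.41 above which a probe set was tested. In the panel of Kcnj9 98332_at the C57BL/6J points sit at 6.57 on average, under those of every other strain, and the panels of Kcnj3 and Kcnj6 lie around or under the dotted line.

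On the log2 scale the strain means of Kcnj9 98332_at (± SD, n = 2 preparations) were, from low to high, 6.57 ± 0.09 in C57BL/6J, 7.69 ± 0.06 in A/J, 7.70 ± 0.15 in BALB/cByJ and 7.79 ± 0.01 in FVB/NJ. They went on with 7.94 ± 0.10 in C3H/HeJ, 8.00 ± 0.01 in SJL/J, 8.09 ± 0.35 in hippocampus_129S1SvImJ and 8.34 ± 0.22 in DBA/2J. The step between C57BL/6J and the next strain, A/J, was the only step between neighbours in this order that passed a test. The range from lowest to highest strain was 1.77 on the log2 scale, or 3.40-fold. The 8 strains differed by limma's moderated F-test (F = 17.0, adjusted p = 0.00081), which called 341 of 7453 probe sets (4.58%), and 1405 (18.9%) with the preparation number as a block. Strain held 86.3% of the variance of this probe set over the 32 arrays, preparation 3.53% and array 10.2%. The medians over all tested probe sets were 6.73% for strain, 20.9% for preparation and 58.3% for array.

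C57BL/6J averaged 6.57 and the other 7 strains 7.94, a difference of -1.36 ± 0.14 (SE, limma adjusted p = 4.3e-05), with a 95% interval of -1.66 to -1.07. This is a signal 2.57-fold lower in C57BL/6J, and the contrast called 170 probe sets (2.28%), of which 102 (1.37% of those tested) were lower. DBA/2J lay at the other end, with 8.34 against 7.68 for the mean of the other 7 strains, a difference of 0.66 ± 0.14 (adjusted p = 0.024) where 1.44% of probe sets were called. That reference holds the low C57BL/6J value. Against the 6 strains without C57BL/6J the difference for DBA/2J was 0.47 ± 0.14 and did not pass (adjusted p = 0.15). The other 6 strains, each set against the rest, did not pass, with differences between -0.08 in A/J and 0.37 in hippocampus_129S1SvImJ. Without C57BL/6J the range over the 7 remaining strains was 0.65 and the F-test did not pass (adjusted p = 0.32).

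**Figure D2:**
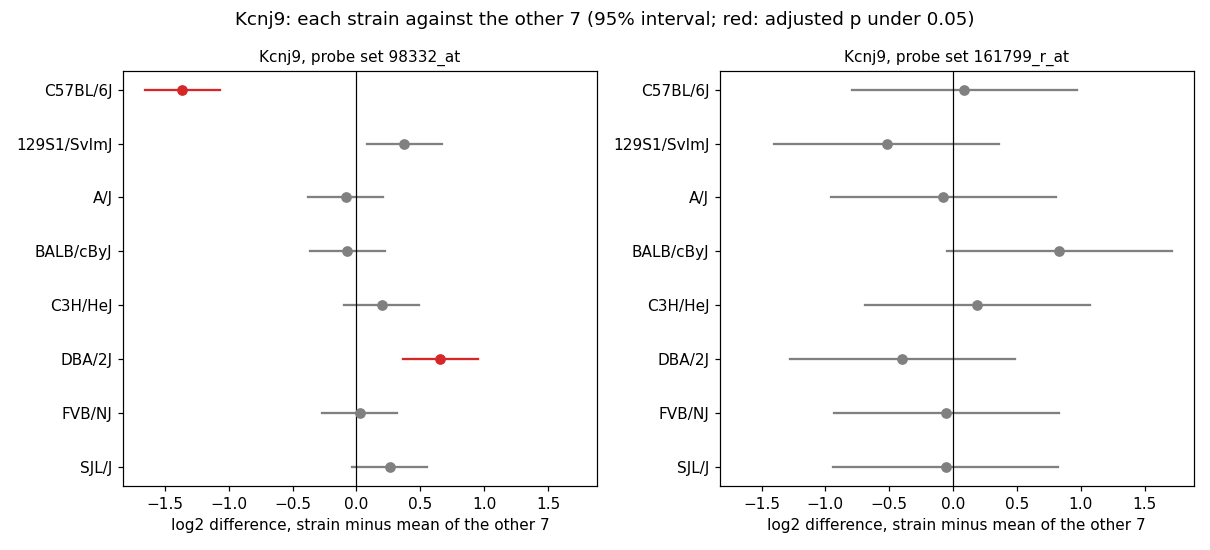
Log2 difference of each strain from the mean of the other 7 (horizontal axis) for the 2 Kcnj9 probe sets, 1 row per strain, with 95% intervals as bars and red where the adjusted p is under 0.05. On 98332_at C57BL/6J stands at -1.36 and DBA/2J at 0.66, and on 161799_r_at every interval includes 0.

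Of the 28 pairs of strains, Kcnj9 98332_at passed in the 7 that include C57BL/6J and in 0 of the other 21 with limma (6 of these 21 had an unadjusted p under 0.05). C57BL/6J minus DBA/2J was -1.77 (3.40-fold lower, 95% interval -2.16 to -1.38, adjusted p = 8.7e-05), and 0.966% of probe sets were called in that pair. The smallest of the 7 was C57BL/6J minus A/J, at -1.12 (2.17-fold lower, adjusted p = 0.0034), where 1.65% were called. The other 5 lay between -1.52 against hippocampus_129S1SvImJ and -1.13 against BALB/cByJ, with adjusted p from 0.00028 to 0.0024. In those 5 pairs 1.61% (hippocampus_129S1SvImJ and FVB/NJ), 1.49% (SJL/J), 1.88% (C3H/HeJ) and 7.55% (BALB/cByJ) of probe sets were called. With the preparation number as a block, 2 pairs without C57BL/6J passed as well. These were DBA/2J minus A/J (0.65, adjusted p = 0.034 with the block and 0.13 without) and DBA/2J minus BALB/cByJ (0.64, adjusted p = 0.0099 with the block and 0.054 without), in fits that called 3.18% and 24.2% of probe sets. Among the 7 strains other than C57BL/6J, neighbours in the order of levels differed by 0.01 to 0.25, with adjusted p of 0.8 or more for each of these 6 pairs.

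The sample titles carry 6 days, of which the first 4 hold 1 C57BL/6J array each beside 6 or 7 arrays of other strains. What the day marks is not stated. Days follow the preparation number in 6 strains, while BALB/cByJ arrays 3 and 4 carry days 5 and 6, and FVB/NJ arrays 2, 3 and 4 carry days 3, 4 and 5. Within those 4 days C57BL/6J minus the mean of the other arrays was -1.47, -1.57, -1.23 and -1.30. Within preparations 1 and 2 it was -1.50 and -1.23. In each of these 6 subsets the C57BL/6J value was below the lowest of the others. Preparation 2 minus preparation 1 of this probe set was -0.11 ± 0.08 over the 8 strains (adjusted p = 0.32), with preparation 2 higher in 4 of 8 strains.

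The second Kcnj9 probe set, 161799_r_at, did not show the low C57BL/6J level. Its signals were 181.7, 86.7, 102.2 and 79.1 in C57BL/6J. In BALB/cByJ, the strain with the highest mean, they were 228.2, 379.8, 131.2 and 67.9, and in hippocampus_129S1SvImJ, the lowest, 106.5, 125.9, 59.0 and 36.9. The C57BL/6J arrays lay inside the span of the other 28, which ran between 36.9 and 379.8. The strain means, low to high, were 6.20 ± 0.93 in hippocampus_129S1SvImJ, 6.31 ± 0.78 in DBA/2J, 6.59 ± 0.42 in A/J, 6.60 ± 0.60 in SJL/J, 6.61 ± 0.22 in FVB/NJ, 6.73 ± 0.34 in C57BL/6J, 6.82 ± 0.48 in C3H/HeJ and, at the top, 7.38 ± 1.16 in BALB/cByJ (SD, n = 2). All 7 steps between neighbours were smaller than the larger of the 2 SDs beside them. C57BL/6J minus the other 7 strains was 0.09 ± 0.41 (6.73 against 6.64, 95% interval -0.79 to 0.97, adjusted p = 0.98). That interval does not reach the -1.36 of the other probe set.

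Across strains 161799_r_at did not pass the F-test (adjusted p = 0.82, and 0.069 with the preparation number as a block), and it passed in 0 of 28 pairs with limma (1 had an unadjusted p under 0.05). BALB/cByJ minus the other 7 strains was 0.83 ± 0.41 (7.38 against 6.55, adjusted p = 0.19), where 8.92% of probe sets were called. It was 0.0099 without preparation 1 of BALB/cByJ and 1.65 without preparation 2. The range across strains was 0.62 and 2.00 in these fits. They hold no term for preparation, and preparation 2 was lower in every strain, so their values mix that shift with the strain difference. BALB/cByJ was highest in both preparations, at 8.20 in preparation 1 (next C3H/HeJ, 7.16) and 6.56 in preparation 2 (next C57BL/6J, 6.49). With the block BALB/cByJ minus the other 7 strains passed (adjusted p = 0.0069), in a fit that called 30.4% of probe sets for that contrast. With the block BALB/cByJ was also higher than hippocampus_129S1SvImJ (1.18, adjusted p = 0.011), DBA/2J (1.08, adjusted p = 0.0095) and FVB/NJ (0.77, adjusted p = 0.047), pairs in which 12%, 24.2% and 21.8% were called with the block. The block joins preparations by number, and preparation 2 of BALB/cByJ carries days 5 and 6 in the sample titles, which no C57BL/6J array carries, so for BALB/cByJ it does not stand for a shared day. Probe sequences were not used here, so the assignment of both probe sets to Kcnj9 rests on the array's annotation. Across the 8 strain means the Pearson correlation of the 2 Kcnj9 probe sets was -0.35, and over the 32 arrays, which share their libraries, it was -0.13.

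The signal of 161799_r_at moved with preparation in the same direction in all strains. Preparation 2 averaged 6.22 and preparation 1 averaged 7.09, and preparation 2 was lower in 8 of 8 strains (-0.87 ± 0.13, limma adjusted p = 0.00078). A preparation effect was called for 23.2% of the 12422 probe sets, and for 37.5% of the 7453 tested ones when these were fitted alone. Preparation held 64.8% of the variance of 161799_r_at and array 35.2%, while the estimate for strain was below 0 and was set to 0%. In these shares a shift common to all strains counts as preparation and enters the spread that strain is set against. Sense-strand controls, probe sets meant to read no labelled cRNA, were high on 11 arrays (mean log2 6.95 to 7.84) and low on 21 (4.91 to 5.64). The high set holds each BALB/cByJ array, preparation 1 of SJL/J, C3H/HeJ and A/J, and 1 FVB/NJ array, and the 4 C57BL/6J arrays are in the low set. FVB/NJ array 1 read 7.39 for the control on day 1. Array 2 read 5.33 on day 3, although the series design gives both arrays preparation 1. The FVB/NJ values by preparation rest on that design, and the assignment was not tested. The median signal of 161799_r_at was 131.2 on the 11 high arrays and 86.7 on the 21 low ones, and its correlation with the control was 0.51 over 32 arrays, a value that 8.29% of tested probe sets reach. With the strain means taken out of both, it was 0.31. For 98332_at the correlation over 32 arrays was 0.00 (-0.14 with the strain means taken out). Its C57BL/6J contrast was called with the control signal as a covariate too. The part of preparation and of the control signal in the level of 161799_r_at was not tested beyond these values.

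**Figure D3:**
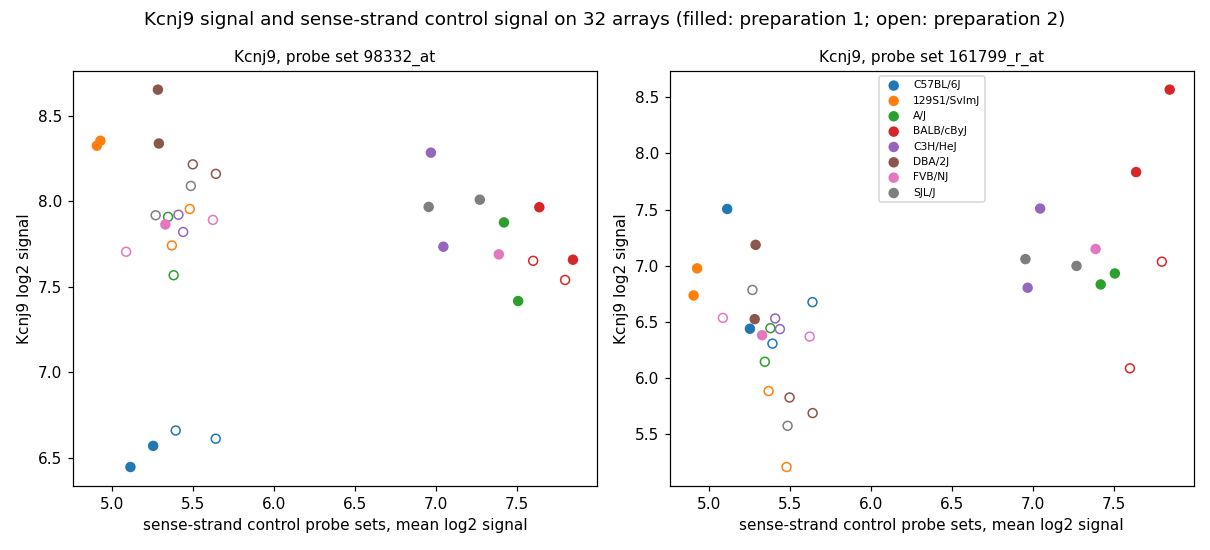
Log2 signal of the 2 Kcnj9 probe sets (vertical axes) against the mean log2 signal of the sense-strand control probe sets (horizontal axes) on the 32 arrays, with 1 colour per strain, filled points for preparation 1 and open points for preparation 2. On 98332_at the 4 C57BL/6J points sit at 6.66 or less, apart from all others at either control level, and on 161799_r_at the 2 BALB/cByJ points of preparation 1 are the highest.

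Kcnj3, the GIRK1 gene, was read near the limit for testing on its 1 probe set, 101188_at, which ranked 7641 of 12422 by mean signal. Its values come from the fit over all 12422 probe sets, in which the F-test called 323 (2.6%). C57BL/6J arrays read 7.9, 22.0, 22.3 and 20.8. BALB/cByJ had the highest mean, with 9.0, 36.3, 27.9 and 38.4, and FVB/NJ the lowest, with 13.2, 9.8, 24.4 and 19.3. The arrays of all 8 strains overlapped, within 7.9 to 38.4 and a median of 21.05. The strain means spanned 0.63 on the log2 scale (1.55-fold), between 3.97 ± 0.66 in FVB/NJ and 4.60 ± 0.61 in BALB/cByJ (SD, n = 2), and the F-test did not pass (adjusted p = 0.94). C57BL/6J minus the other 7 strains was -0.26 (1.28% of probe sets were called in that contrast), with a 95% interval of -1.01 to 0.50 that just includes a 2-fold lower level (-1 on the log2 scale). Preparation 2 was above preparation 1 in 8 of 8 strains (4.58 against 4.02, a difference of 0.56 ± 0.17, limma adjusted p = 0.03).

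Kcnj6, the GIRK2 gene, was read at low signal on both probe sets. On 92523_at signals ran between 1.0 and 27.7 with a median of 16.65, and on 92524_at between 1.6 and 37.9 with a median of 7.5. C57BL/6J read 9.9, 14.5, 21.2 and 6.8 on 92523_at, where hippocampus_129S1SvImJ had the highest mean (19.5, 22.5, 17.3 and 15.3) and DBA/2J the lowest (1.7, 9.6, 9.4 and 17.6). The groups overlapped, and the 4 arrays of C3H/HeJ alone ran between 1.0 and 22.4. On 92524_at C57BL/6J read 8.2, 20.5, 7.6 and 8.4, BALB/cByJ had the highest log2 mean (signals of 8.5, 37.9, 32.9 and 10.6) and DBA/2J the lowest (2.0, 2.1, 8.8 and 9.2). DBA/2J thus had the lowest log2 mean on both. On 92524_at its 2.10 ± 1.51 (SD, n = 2) lay beside SJL/J (2.14) and C3H/HeJ (2.16), and on linear signal SJL/J was lower (5.1 against 5.5). The order of the other strains differed between the 2 probe sets, whose correlation over the 8 strain means was 0.41.

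Neither Kcnj6 probe set passed the F-test over all 12422 probe sets, with ranges of 1.36 (adjusted p = 0.79) and 2.09 on the log2 scale (adjusted p = 0.51). C57BL/6J minus the other 7 strains was -0.05 (95% interval -1.16 to 1.07) on 92523_at and 0.52 (-0.65 to 1.68) on 92524_at. These intervals include changes of 2-fold in either direction for the first and upward for the second. On 92524_at BALB/cByJ minus the other 7 strains was 1.48 (4.19 against 2.71, 95% interval 0.32 to 2.65), and it did not pass (adjusted p = 0.11). No contrast of a strain with the rest and none of the 28 pairs passed for Kcnj3 or for either Kcnj6 probe set, with or without the preparation block (9.3% of probe sets passed the F-test with it). Array held 83.0% of the variance of the Kcnj3 probe set and 100% and 87.0% of that of the Kcnj6 probe sets. In these shares estimates below 0 for strain or preparation were set to 0. Strain differences in Kcnj3 and Kcnj6 were thus not detectable at these signals.

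The profiles most like that of Kcnj9 98332_at belonged to genes that were also low in C57BL/6J. Over the 16 preparation values the 5 highest Pearson correlations among 6741 tested probe sets with 1 symbol of other genes were those of Cap1, a regulator of actin (0.91), Gnb1, a G protein beta subunit (0.88 and 0.87 on 2 probe sets), Lpl, lipoprotein lipase (0.87), and Rdh13, a retinol dehydrogenase (0.85). The 95th percentile over all compared probe sets was 0.46. Cap1 averaged 4.48 in C57BL/6J, against 6.69 to 7.44 in the other strains. Gnb1 averaged 4.99 in C57BL/6J, against 7.47 to 8.46, on 94853_at, and 8.54, against 10.13 to 10.36, on 94854_g_at. Lpl averaged 4.29 in C57BL/6J, against 5.63 to 6.26, and Rdh13 4.35, against 5.71 to 6.13. Over the 14 preparations without C57BL/6J the correlations with Kcnj9 were 0.45 for Cap1, 0.21 and 0.18 for Gnb1, 0.29 for Lpl and 0.34 for Rdh13, each lower than with that strain.

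**Figure D4:**
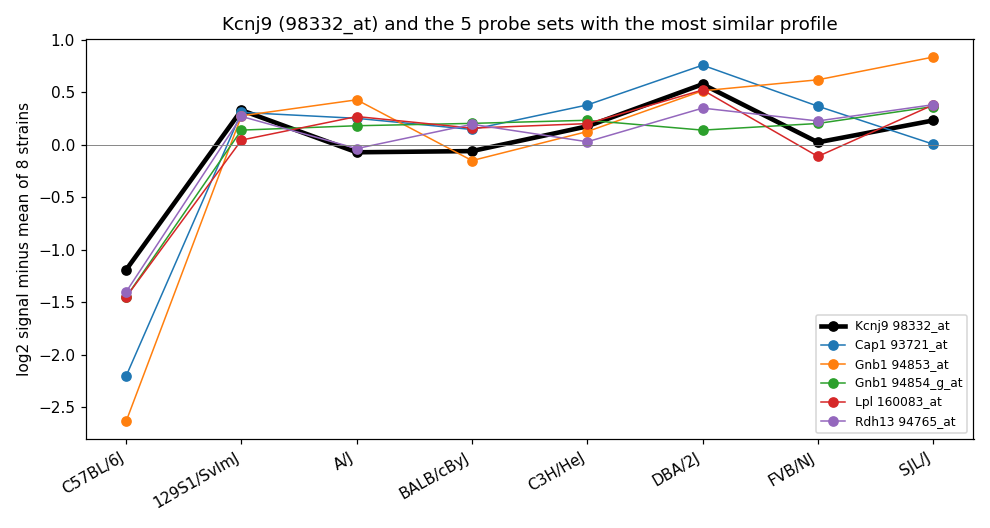
Strain mean log2 signal minus the mean of the 8 strains (vertical axis) for Kcnj9 98332_at (thick black line) and the 5 probe sets with the highest correlation to it over 16 preparations. All 6 lines are lowest in C57BL/6J, and they differ in order among the other 7 strains.

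For 161799_r_at the 5 closest probe sets were those of Ap1b1, an adaptor subunit of clathrin coats (0.90), Mllt1 (0.89), Yipf3 (0.88), Cuta (0.87) and Ptov1 (0.87), where the 95th percentile was 0.67. All 5 were highest in BALB/cByJ, as this Kcnj9 probe set was, and none passed the F-test (adjusted p from 0.7 to 0.96). They were picked for likeness to it, so a shared top strain follows in part from that choice. The correlations were over 16 preparation values, and preparation 2 of 161799_r_at was lower in every strain. The part of that shift in them was not tested. The lists of closest probe sets for the 2 Kcnj9 probe sets shared no gene, but lists of 5 out of 6741 seldom overlap, so nothing is concluded from this. Kcnj9 lies on chromosome 1, and among the 5 protein-coding genes on either side of it those with a probe set were Pea15a, Casq1, Igsf8 and Tagln2. C57BL/6J minus the other strains was -0.15 for Pea15a, -0.40 for Casq1, -0.09 for Igsf8 and -0.44 for Tagln2, and none passed (adjusted p = 0.77, 0.29, 0.95 and 0.18). None of the 4 passed the F-test across strains either. C57BL/6J still had the lowest mean for Casq1 (6.13, against 6.34 to 6.80) and Tagln2 (7.20, against 7.49 to 8.01). For Pea15a (8.82, against 8.60 to 9.28) and Igsf8 (8.93, against 8.83 to 9.47) it lay inside the range of the others. Near Kcnj6 on chromosome 16, Ttc3 passed the F-test (adjusted p = 0.013), and its C57BL/6J contrast did not (0.37, adjusted p = 0.087). The neighbours of Kcnj3 on chromosome 2 with a tested probe set (Rprm, Nr4a2 and Gpd2) did not pass.

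The genes around the channel were taken from lists of 90 genes in 6 roles, of which 64 were on the array and 43 tested, each by its probe set of highest mean signal. Across strains 2 of the 43 passed the F-test, a share near the 4.58% of all tested probe sets. With the preparation block 17 of the 43 passed, a larger share than the 18.9% of all tested probe sets. The genes stand by their brightest probe sets, unlike the shares over all, and whether the lists differ from other probe sets was not tested. In C57BL/6J 1 gene was lower and 1 higher than in the other 7 strains. That contrast called 2.28% of all tested probe sets, 1.37% as lower. The median difference over the 43 was -0.03, as it was over all tested probe sets. Among other inward rectifier subunits 2 of 12 were tested and 0 passed with limma (Kcnj4 at adjusted p = 0.91 and Kcnj11 at 0.58). Kcnj5, the GIRK4 gene, gave signals of 1.3 to 36.4 with a median of 2.95 and was not tested. Of the Gi/o alpha subunits 5 of 5 were tested and none passed, and 2 passed with the block (Gnai1 at adjusted p = 0.0083 and Gnao1 at 0.0088).

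Of the beta and gamma subunits, whose dimers gate the channel, 8 were tested and Gnb1 passed. With the block 5 passed, where 18.9% of all tested probe sets did. On its brightest probe set Gnb1 averaged 9.20 ± 0.09 in C57BL/6J, against 10.66 to 10.85 elsewhere (n = 2 each), a difference of -1.58 ± 0.11 (2.99-fold lower, adjusted p = 1.3e-06). All 3 Gnb1 probe sets passed the F-test and were lowest in C57BL/6J. The other beta and gamma genes tested (Gnb2, Gnb5, Gng2, Gng3, Gng10, Gng11 and Gng12) had C57BL/6J differences between -0.34 and 0.16, and none passed. Of the Gi/o-coupled receptors 12 were tested, 0 passed and 4 passed with the block. Gabbr1, a GABA-B receptor subunit, differed by 0.22 in C57BL/6J and Htr1a, the serotonin 1A receptor, by -0.31, neither past the test. The smallest adjusted p of the receptors was that of Npy1r, a neuropeptide Y receptor (0.056, and 0.0041 with the block), which was highest in A/J (5.65 ± 0.40) and lowest in BALB/cByJ (3.81 ± 0.00).

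Of the RGS proteins, which speed the closing of GIRK channels by ending the G protein signal, and the receptor kinases, 12 were tested and Rgs5 passed (adjusted p = 0.00086), with 3 passing under the block. Rgs5, also known as a transcript of pericytes, averaged 6.64 ± 0.20 in DBA/2J, 6.33 ± 0.23 in BALB/cByJ and 6.16 ± 0.35 in C57BL/6J, while the remaining 5 strains lay between 4.17 and 4.54. C57BL/6J minus the other 7 strains was 1.20 ± 0.28 (6.16 against 4.96, adjusted p = 0.036), and the second Rgs5 probe set passed the F-test as well (adjusted p = 0.046). Of the trafficking and scaffold proteins 4 were tested, 0 passed and 3 passed with the block. The blocked F-test called 18.9% of all tested probe sets. The C57BL/6J contrast with the block added Rgs7, whose product acts on GIRK currents in hippocampal neurons (a difference of 0.70, adjusted p = 0.0082 with the block and 0.34 without). It also added the scaffold gene Dlg1 (0.46, adjusted p = 0.036 with the block and 0.12 without). The blocked contrast called 6.63% of all probe sets.

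**Figure D5:**
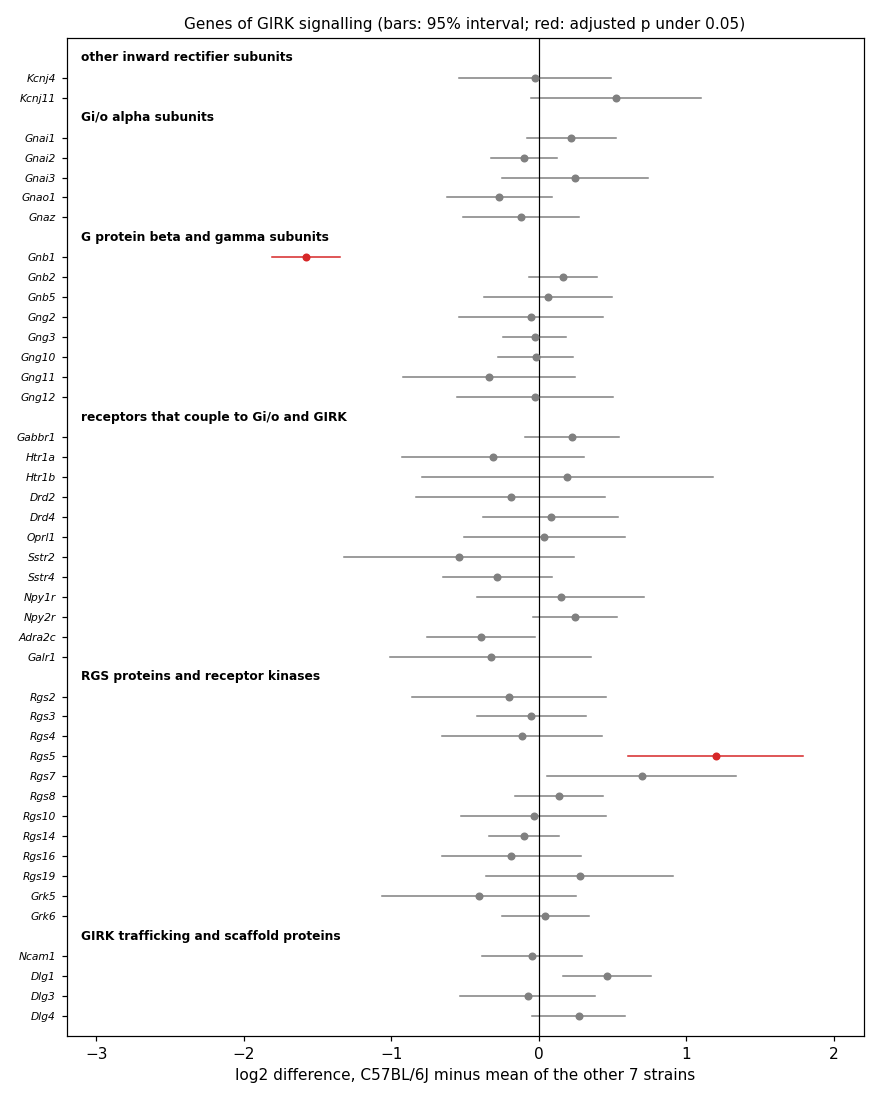
Log2 difference of C57BL/6J minus the mean of the other 7 strains (horizontal axis) for the 43 tested genes of 6 roles in GIRK signalling, 1 row per gene, with 95% intervals as bars and red where the adjusted p is under 0.05. Gnb1 at -1.58 and Rgs5 at 1.20 are the genes in red.

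Markers of hippocampal and neighbouring cell types differed in part between C57BL/6J and the other strains. Each list is given by its mean log2 signal per strain and by its summed signal per array, over the list's genes on the array. For 6 excitatory neuron markers the mean was 7.86 in C57BL/6J, inside the range of 7.63 to 8.40 that the 7 others spanned, with sums of 1740.1 to 2328.4 in C57BL/6J and 1563 to 3748.3 in the others. For 7 inhibitory neuron markers it was 8.55 in C57BL/6J, inside the others' 8.24 to 8.63, with sums of 4000.3 to 4278.1 in C57BL/6J and 3196.8 to 4123.7 in the others. No neuron marker passed in the C57BL/6J contrast. Excitatory markers differed by -0.81 (Camk2a, limma adjusted p = 0.065), -0.57 (Neurod2), -0.29 (Nrgn), -0.18 (Neurod6), -0.05 (Prox1) and 0.10 (Wfs1). Inhibitory markers differed by -0.80 (Gad2), -0.24 (Pvalb), 0.00 (Calb2), 0.08 (Gad1), 0.43 (Sst), 0.52 (Slc32a1) and 0.57 (Npy).

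On mean log2 signal C57BL/6J lay above every other strain for 2 lists of glial markers and below every other strain for 3 lists. Every list has a highest and a lowest strain. The share of all probe sets with C57BL/6J at either place is not given here, so nothing is concluded from these counts. Microglia markers averaged 7.05 in C57BL/6J, against 6.47 to 6.85 in the others, and their sums did not overlap (1258.9 to 1309.1 on C57BL/6J arrays and 834.8 to 1189.6 on the others). Of 6 tested 1 passed (C1qc, 0.78, adjusted p = 0.019), where 2.28% of all tested probe sets passed. The list did not move as 1: C1qb differed by 1.38, Tyrobp by 0.56, C1qa by 0.31 and Aif1 by 0.12, while Cx3cr1 (-0.21) and Csf1r (-0.06) were lower. Of single tested probe sets 0.483% had all 4 C57BL/6J arrays above the other 28. Oligodendrocyte markers averaged 7.72 in C57BL/6J, against 7.26 to 7.54, with sums of 3374 to 4710.9 in C57BL/6J and 2606.2 to 4130 in the others, and 1 of 5 tested passed (Mag, 0.85, adjusted p = 0.0029). Choroid plexus markers averaged 5.41 in C57BL/6J, against 5.50 to 6.40, with sums of 177.9 to 260.6 in C57BL/6J and 233.6 to 629.6 in the others, and 1 of 4 passed (Ttr, -1.60, adjusted p = 3.1e-05). The 4 thalamus markers averaged 5.84 in C57BL/6J, against 5.91 to 6.29, with sums of 243.9 to 329.2 in C57BL/6J and 293.8 to 502.5 in the others, and none passed. The 5 astrocyte markers averaged 7.95 in C57BL/6J, against 8.01 to 8.30, while their sums overlapped (1623.7 to 1825.3 in C57BL/6J and 1408.9 to 2527.7 in the others), and none passed. Of these Slc1a2 differed by -0.76, Gja1 by -0.19, S100b by -0.10 and Gfap by -0.04, while Aqp4 was higher (0.06). Erythroid markers averaged 7.16 in C57BL/6J, inside the others' 6.62 to 7.28, with sums of 724 to 786.9 in C57BL/6J and 542.8 to 1523.7 in the others, and the 1 tested did not pass. No marker had a median signal of 0.

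Over the 8 strain means, of which C57BL/6J is 1, the Pearson correlation of a list's mean log2 signal with Kcnj9 98332_at was -0.85 for oligodendrocytes, 0.72 for choroid plexus, 0.70 for the thalamus and -0.68 for microglia. It was -0.52 for erythroid cells, 0.40 for astrocytes, -0.35 for inhibitory neurons and 0.10 for excitatory neurons. C57BL/6J was the lowest strain of 98332_at and the highest or lowest for several of the lists. These correlations thus rest in part on that strain, and they were not computed without it. The part of these cell types in the Kcnj9 difference was not tested.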

How the data were processed

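Hippocampal RNA of 8 strains was measured on 32 Affymetrix U74Av2 arrays, 4 a strain, grouped by strain from the sample titles. The authors deposited linear intensity values, a signal for each probe set on each array, and the submitters' processing notes name MAS5 without a version. Its scaling target is not given in the sources used here. Each array's mean, with 2% trimmed from each end, was 100.05 to 100.07, and the median signals were 29.4 to 43.7, so no further scaling was done. Probe-level values were not analysed here.

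Signals under 1 were set to 1 (2.14% of values), log2 was taken and the 2 arrays of a preparation were averaged. The top 60% of probe sets by mean level (geometric mean signal of 21.3 or more) went into a linear model (limma 3.58.1, R 4.3.3, eBayes with a trend on mean signal and 8 residual degrees of freedom), with an F-test over strains, each strain against the other 7, and 28 pairs. Adjustment of p-values was by Benjamini-Hochberg over all tested probe sets within a test, with a threshold of 0.05. Members below the limit were read from the same fit over all 12422 probe sets. For variance shares, mean squares were nested over arrays, and components estimated below 0 were set to 0. The fit was tested on simulated data.

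The main fits did not pair the samples, and only the blocked fit took the preparation number as pairing them. The series design says which arrays carry which preparation. It does not say that equal numbers share a day, and in BALB/cByJ and FVB/NJ they do not. Differences between preparations correlated for all 28 pairs of strains (r 0.109 to 0.557, median 0.385). The blocked fit is given where it changes a call. Genes named are the members, list genes past the F-test, the 5 most correlated probe sets and the 5 protein-coding genes on either side of a member; other list genes named were chosen after their values were seen. Members and lists were chosen with earlier results of these data known. Names come from the platform annotation, in which 10833 probe sets had 1 symbol, 396 several and 1193 no entry; sequences and gene order come from RefSeq (GRCm38.p6). No array pair held identical values. Alternatives covered scaling, filter, offset, variance trend, block, single arrays with and without day, and leaving out arrays, preparations or strains.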

Additional observations from a re-analysis of the deposited data

Results flagged for a closer look

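In 4 of the 40 groups of 4 arrays (5 probe sets in 8 strains), 1 array stood apart from the other 3 by a gap larger than Dixon's 95% critical value allows; chance gives about 1 in 20. For Kcnj3 101188_at in C57BL/6J, array 1 read 7.9 and the other 3 read 20.8 to 22.3, a gap of 0.933 of the log2 range. For Kcnj3 in A/J, array 4 read 24.4 and the others 14.4 to 15.7, a gap of 0.836. For Kcnj6 92523_at in A/J, array 3 read 1.7 and the others 16.9 to 21, a gap of 0.914. For Kcnj6 92524_at in C57BL/6J, array 2 read 20.5 and the others 7.6 to 8.4, a gap of 0.899. All 4 lie on probe sets under the limit for testing, and no group of either Kcnj9 probe set stood out in this way.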

How the results depend on the processing

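The C57BL/6J contrast of Kcnj9 98332_at was called under all 60 alternatives run, at -1.43 to -0.96 (limma adjusted p from 4.4e-10 to 0.0053), and so was C57BL/6J minus DBA/2J, at -1.92 to -1.29. The C57BL/6J contrast of 161799_r_at was called under none of 60, at -0.18 to 0.35. The DBA/2J contrast of 98332_at lost its call in 7 of 61: with arrays centred on the median (0.64, adjusted p = 0.083), with no variance trend (0.66, 0.063), with the sense-strand control as a covariate (0.64, 0.055), against the strains without C57BL/6J (0.47, 0.15), without array 1 of C3H/HeJ (0.64, 0.055), and without preparation 1 (0.50, 0.66) or 2 (0.81, 0.089) of DBA/2J; the lone preparation was then assumed to vary like the other strains. Leaving out arrays or preparations gave 0.50 to 0.81. The member contrasts called, 2 of strains against the rest, were 1 with centring, with no trend and with the covariate, and 1 to 2 on leaving out arrays or preparations. The cause of these losses was not tested.

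With the replicate block the probe sets past the F-test were 1405, against 341 without, the member pairs called 12 against 7, and the pathway genes 17 against 2; the block also called BALB/cByJ against the rest on 161799_r_at, and changed no other call of a strain contrast or F-test of a member. With single arrays as units, 667 probe sets and 7 pathway genes passed the F-test. With single arrays and day they were 2003 and 14, with 2 member probe sets and 17 member pairs, as 161799_r_at then passed (range 1.53, adjusted p = 0.0098; BALB/cByJ against the rest 1.15, 0.0011). Pathway genes past the F-test were 7 with centring, 4 with quantile normalization and 2 to 4 on leaving out arrays, where 4 came without array 1 of BALB/cByJ. The range of 98332_at without C57BL/6J was 0.65 (adjusted p = 0.32). The alternatives on the covariate and on leaving out a strain were chosen after seeing the data. Kcnj3 and Kcnj6 are limited by signals near the low end of the arrays.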
